A study of Mus musculus with 4 samples.

Results

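Mammary identity was examined through 10 genes that are used to tell luminal from basal cells of the mouse mammary gland. They were Esr1, Pgr, Gata3, Foxa1, Elf5, Ehf, Trp63, Cd24a, Epcam and Cd44, taken as a list of names, and all 10 were among the 21090 genes of the expression table. RNA-seq libraries (n = 4) came from cultured mouse mammary tumor cells, each line giving 1 library. The lines descend from a sarcomatoid mammary adenocarcinoma of a mouse of C57BL/6 background that also had lung metastasis. That mouse carried the Pik3ca H1047R and Trp53 R270H alleles, switched on by Cre from the MMTV promoter, which is active mainly in mammary epithelium. By the study's description, every line used here shares this genotype.

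The control group (n = 2) held the parental line and a line that received the vector control. The knockout group (n = 2) held a line edited with Cas9 and a guide RNA to exon 3 of S100a4 and a line edited with a guide RNA to exon 2, both delivered by lentivirus and selected with puromycin. S100a4 encodes a small calcium-binding protein, and the comparison asks how its disruption alters RNA levels in these tumor cells. The sample titles give the exon 2 knockout a different cell number from the other 3 lines. The study describes a common starting line for the knockouts, and the shared origin of the exon 2 knockout rests on that description. The 2 libraries of a group are different lines and no line has a repeat library, so p-values measure only the spread between these lines, technical spread included. Of all tested genes, 927 (8.53%) differed at least 2-fold when the vector control was set against its parental line. Values are RPKM, reads per kilobase of coding length scaled to the library total, and that total lay between 22472024 and 31235456 reads. The RPKM of S100a4 was 3576 in parental cells, 4741 with the vector control, 1136 after exon 3 editing and 1105 after exon 2 editing, so both knockouts lay below both controls (log2 difference -1.88, SE 0.311, adjusted p = 0.0731 by limma). Its annotated exons overlap those of another gene model, Gm42674. For the knockout lines the study reports truncating mutations in nearly all S100a4 transcripts and loss of the protein by Western blot.

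The mammary duct is built of an inner layer of luminal cells and an outer layer of basal, or myoepithelial, cells. Hormone-sensing luminal cells carry the estrogen and progesterone receptors, ESR1 and PGR, and use the transcription factors GATA3 and FOXA1. Alveolar luminal cells, which make milk, depend on the ETS factor ELF5, and its relative EHF is found in many epithelia. Basal cells are marked by TRP63, the p63 protein, while CD24, EPCAM and CD44 are surface proteins by which mammary cells are sorted.

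Most of these genes were near absent. Of the 10, 4 averaged at least 1 RPKM, namely Cd44, Gata3, Cd24a and Esr1, and 6 did not. Elf5 had 0 reads in every library, Ehf and Pgr had 1 read each in all libraries together, and Foxa1, Trp63 and Epcam had 16, 42 and 46 reads in total. For scale, 48.5% of all genes in the table had a mean RPKM under 1. In mean RPKM the order was Cd44, Gata3, Cd24a, Esr1, Epcam, Trp63, Foxa1, Ehf, Pgr and Elf5. The ranges over the 4 libraries overlapped for Gata3 and Cd24a, although Gata3 was the higher in 4 of 4 libraries, and for every pair of neighbours from Trp63 down to Elf5.

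The regions before the transcription start of 4 regulators of hormone-sensing luminal cells are shown, since Gata3 and Esr1 were expressed in these lines and Foxa1 and Pgr were almost silent. The table of RefSeq promoters (GRCm38.p6) held 7 of the 10 genes. Each sequence is the 250 bases before the start, read 5′ to 3′ on the gene's strand, with CG dinucleotides, the usual target of DNA methylation, in capitals.
Gata3, chr2:9878601-9878850, minus strand: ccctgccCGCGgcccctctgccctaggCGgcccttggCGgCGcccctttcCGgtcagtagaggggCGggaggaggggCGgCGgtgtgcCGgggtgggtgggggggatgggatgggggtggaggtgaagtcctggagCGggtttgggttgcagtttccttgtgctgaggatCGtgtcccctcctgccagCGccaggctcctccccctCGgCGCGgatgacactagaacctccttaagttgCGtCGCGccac
Esr1 (the second of its listed starts), chr10:4709908-4710157, plus strand: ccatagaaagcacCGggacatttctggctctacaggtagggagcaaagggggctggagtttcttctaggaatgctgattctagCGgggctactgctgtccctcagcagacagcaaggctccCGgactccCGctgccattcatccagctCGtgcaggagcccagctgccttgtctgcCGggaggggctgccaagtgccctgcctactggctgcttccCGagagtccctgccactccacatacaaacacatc
Foxa1, chr12:57546112-57546361, minus strand: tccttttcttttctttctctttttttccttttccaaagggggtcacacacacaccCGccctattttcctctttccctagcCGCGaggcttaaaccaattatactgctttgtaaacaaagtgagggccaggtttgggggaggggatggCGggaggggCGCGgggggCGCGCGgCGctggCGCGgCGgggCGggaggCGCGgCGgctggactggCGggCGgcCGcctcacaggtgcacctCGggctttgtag
Pgr, chr9:8899583-8899832, plus strand: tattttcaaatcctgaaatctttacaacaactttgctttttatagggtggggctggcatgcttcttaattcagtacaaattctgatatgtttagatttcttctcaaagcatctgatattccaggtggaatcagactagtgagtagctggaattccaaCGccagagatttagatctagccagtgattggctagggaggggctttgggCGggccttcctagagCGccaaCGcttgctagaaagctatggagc
The window of the first Esr1 start lies within an annotated exon of another Esr1 transcript and is not shown, and it held 4 CG dinucleotides. The number of CG dinucleotides was 19 in the Gata3 sequence, 7 in that of Esr1, 21 in that of Foxa1 and 4 in that of Pgr, with a median of 6 over 32841 promoters of the same length. The expressed Gata3 and the nearly silent Foxa1 were thus both rich in CG, and 80.3% and 83.6% of promoters held fewer. The palindromic estrogen response element, GGTCANNNTGACC, which reads alike on both strands, was searched and found in 0.0639% of all promoters and in none of these 4. The motif CACCTG, read on both strands and bound by factors such as SNAI1 and ZEB1, occurred in 17.2% of all promoters, with 1 copy in Foxa1, 1 in Pgr and 0 in Gata3 and Esr1. The Gata3 window overlaps an exon of the antisense gene Gm13256, and the bases of the Foxa1 window nearest the start are annotated as untranslated exon in GENCODE M21. By the same annotation the windows of Gata3, Esr1 and Foxa1 lie inside the bounds of their genes, downstream of the outermost start. Only the Pgr window lies before its gene. These are matches of letters, and binding and methylation were not measured.

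Among the hormone-sensing regulators, Gata3 had the highest level. Gata3 (chromosome 2, 9857078 to 9890034, minus strand, GRCm38) encodes a zinc finger factor needed to form and keep luminal cells. Its RPKM was 23.0 (956 reads) in parental cells, 26.0 (878) with the vector control, 17.1 (534) after exon 3 editing and 23.3 (697) after exon 2 editing. The exon 2 knockout lay between the controls, so the groups overlapped. Controls averaged 24.5 ± 2.11 and knockouts 20.2 ± 4.39 (SD, n = 2 each), a log2 difference of -0.28 (SE 0.316, adjusted p = 0.646 by limma). Without the exon 3 knockout the difference was -0.066. The antisense gene Gm13256 overlaps its coding exons, and whether counting used strand is not stated.

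Esr1 (chromosome 10, 4611593 to 5005614, plus strand), the gene for estrogen receptor alpha, was expressed at a low level. The RPKM was 3.66 (235 reads) in parental cells, 3.34 (174) with the vector control, 2.41 (116) after exon 3 editing and 1.65 (76) after exon 2 editing. Both knockouts lay below both controls, and a bulk library cannot tell fewer expressing cells from less RNA per cell. The 95% counting intervals (exact Poisson, covering counting error only) were 3.21 to 4.16, 2.86 to 3.87, 1.99 to 2.89 and 1.30 to 2.06 in the same order, so that of the exon 3 knockout just met that of the vector control. The knockouts averaged 2.03 ± 0.537 and the controls 3.50 ± 0.231 (SD, n = 2 each), 57.9% of the control mean. On the log2(RPKM + 1) scale, which understates the change of genes with low values, the difference was -0.58 (SE 0.364, adjusted p = 0.394 by limma). It was -0.24 after quantile normalization.

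Pgr (chromosome 9, 8899833 to 8968611, plus strand), the progesterone receptor gene and a classical estrogen target, was listed at 0.0115 RPKM in the parental line from 1 read and at 0 in the vector control and both knockouts. With 3 reads taken as the limit for a count of 0, this allows 0.0424 to 0.0479 RPKM in the libraries at 0. The exact Poisson intervals reach 0.0521 to 0.0589 there. Foxa1 (chromosome 12, 57540628 to 57546916, minus strand) encodes a pioneer factor that opens chromatin for the estrogen receptor. It stood at 0.114, 0.224, 0.0606 and 0.0316 RPKM in the parental line, vector control, exon 3 knockout and exon 2 knockout, from 5, 8, 2 and 1 reads. Both knockouts were lower, but the counting intervals of all 4 libraries overlapped, and a limma fit without the filter on low values gave Foxa1 an adjusted p of 0.383. Esr1 and Gata3 RNA was therefore present in these lines with almost no RNA of Foxa1 or Pgr. The ratio of Gata3 to Esr1 RPKM was 6.27 in parental cells, 7.78 with the vector control, 7.10 after exon 3 editing and 14.1 after exon 2 editing.

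Neither ETS factor was expressed at a measurable level. Elf5 (chromosome 2, 103411688 to 103450989, plus strand) had 0 reads in all 4 libraries. At 3 reads the limit is 0.126 RPKM in parental cells, 0.155 with the vector control, 0.168 after exon 3 editing and 0.175 after exon 2 editing. The upper ends of the exact Poisson intervals were 0.155, 0.191, 0.206 and 0.215 in the same order. Ehf (chromosome 2, 103263433 to 103303278, minus strand), which lies beside Elf5 in the genome, had 1 read in the parental line (0.0342 RPKM) and 0 in the other 3.

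The basal factor Trp63 (chromosome 16, 25683763 to 25892102, plus strand) was likewise near 0. Its RPKM was 0.131 (9 reads) in parental cells, 0.197 (11) with the vector control, 0.194 (10) after exon 3 editing and 0.243 (12) after exon 2 editing. The groups overlapped, and no difference was detectable at this depth. The lines thus lacked appreciable RNA both of the basal factor and of most luminal factors.

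**Figure D1:**
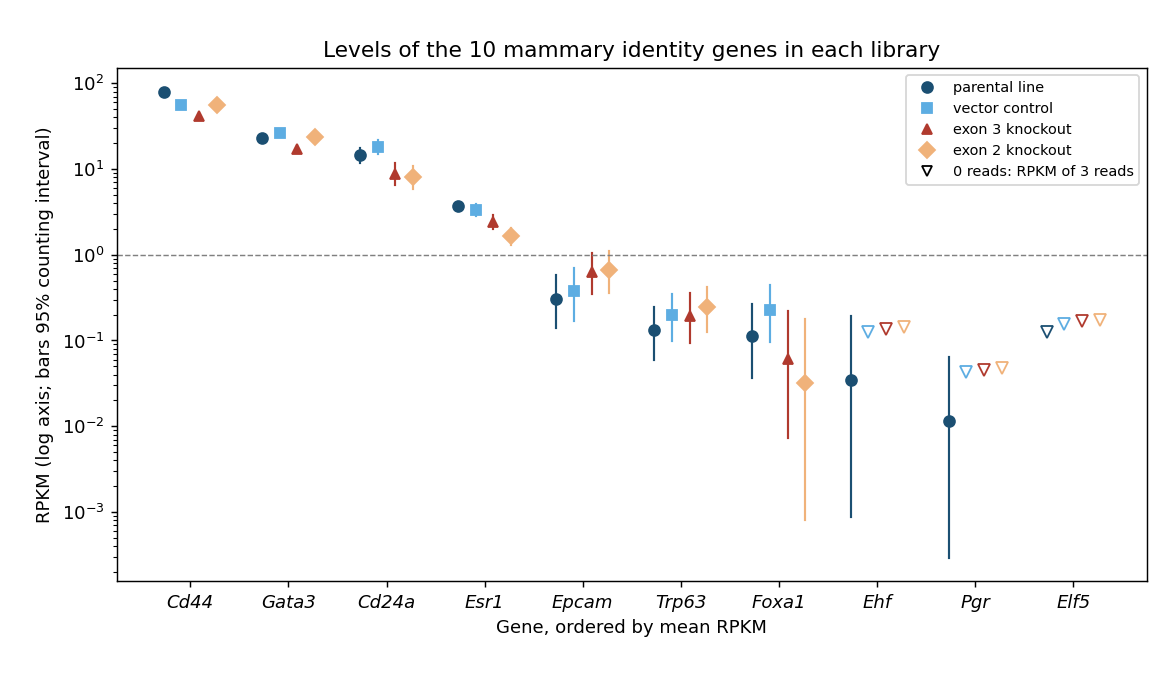
RPKM (log axis) of each of the 10 genes in the 4 libraries, ordered by mean RPKM, with 95% exact Poisson counting intervals as bars and open triangles at the RPKM of 3 reads where a library had 0. Cd44, Gata3, Cd24a and Esr1 sit above the dashed line at 1 RPKM in every library, while the other 6 genes sit below it.

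The surface genes differed widely in level. Cd44 (chromosome 2, 102811141 to 102901665, minus strand), the hyaluronan receptor, which is high on basal and mesenchymal cells, had the highest RPKM of the 10 genes in every library. It was 79.2 (5853 reads) in parental cells, 55.6 (3343) with the vector control, 41.7 (2316) after exon 3 editing and 55.4 (2944) after exon 2 editing. Both knockouts lay below both controls, but the exon 2 knockout and the vector control had overlapping counting intervals, 53.4 to 57.4 and 53.8 to 57.6. The means were 67.4 ± 16.7 and 48.5 ± 9.67 (SD, n = 2 each), with a log2 difference of -0.46 (SE 0.320, adjusted p = 0.445 by limma). The vector control itself differed from the parental line by -0.50, and after correction of each library for coding GC content and length the group difference was -0.060.

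Cd24a (chromosome 10, 43578284 to 43584265, plus strand) encodes a small, heavily glycosylated surface protein that is high on luminal cells. Its RPKM was 14.4 (104 reads) in parental cells, 18.1 (106) with the vector control, 8.85 (48) after exon 3 editing and 8.09 (42) after exon 2 editing. Both knockouts lay below both controls, and the counting intervals nearest each other, 11.8 to 17.5 in the parental line and 6.53 to 11.7 in the exon 3 knockout, did not overlap. The knockouts averaged 8.47 ± 0.538 and the controls 16.2 ± 2.58 (SD, n = 2 each), 52.2% of the control mean. The log2 difference was -0.86 (SE 0.320), the largest of the 4 tested genes, and limma gave it an adjusted p of 0.197. The coding length behind its RPKM is only 231 bases, so these values rest on few reads. Under the alternatives tried the difference ran from -1.20 to -0.64 and the adjusted p from 0.154 to 0.626.

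Epcam (chromosome 17, 87635979 to 87651129, plus strand), an adhesion molecule found on nearly all simple epithelia, was under 1 RPKM and so below the level set for the test. The level was 0.304 (9 reads) in parental cells, 0.374 (9) with the vector control, 0.629 (14) after exon 3 editing and 0.657 (14) after exon 2 editing. Both knockouts were higher than both controls, with overlapping counting intervals in all libraries (0.139 to 0.577, 0.171 to 0.710, 0.344 to 1.06 and 0.359 to 1.10). In a limma fit without the filter on low values the log2 difference was 0.30 (SE 0.0934, adjusted p = 0.332), with an unadjusted p under 0.05. The study itself picked Epcam on these samples, so its direction is no independent evidence. Gata3 RPKM exceeded that of Epcam by a ratio of 75.6 in parental cells, 69.4 with the vector control, 27.1 after exon 3 editing and 35.4 after exon 2 editing. Mammary cells are often sorted by the balance of CD44 and CD24, and the ratio of Cd44 to Cd24a RPKM was 5.49 in parental cells, 3.08 with the vector control, 4.71 after exon 3 editing and 6.84 after exon 2 editing, with overlapping groups.

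Across the 4 tested genes the log2 difference was negative in all 4, and in 3 of them, Cd24a, Esr1 and Cd44, both knockouts lay below both controls. Among all 10871 tested genes, 31.2% lay lower in both knockouts and 21.9% higher, 55.0% had a negative difference and the median difference was -0.078. None of the 4 passed an adjusted p of 0.05 in limma, and 1, Cd24a, had an unadjusted p under 0.05. Few genes passed at all, 2 of 10871 or 0.0184%, while 2076 had an unadjusted p under 0.05. No member was at least 2-fold apart in all 4 pairs of a knockout and a control, against 1.73% of tested genes on the lower side and 0.267% on the higher side. With 2 libraries against 2, the exact permutation test cannot go below a two-sided p of 0.333, which Cd24a, Esr1 and Cd44 reached, and Gata3 gave 0.667 in the same exact test.

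**Figure D2:**
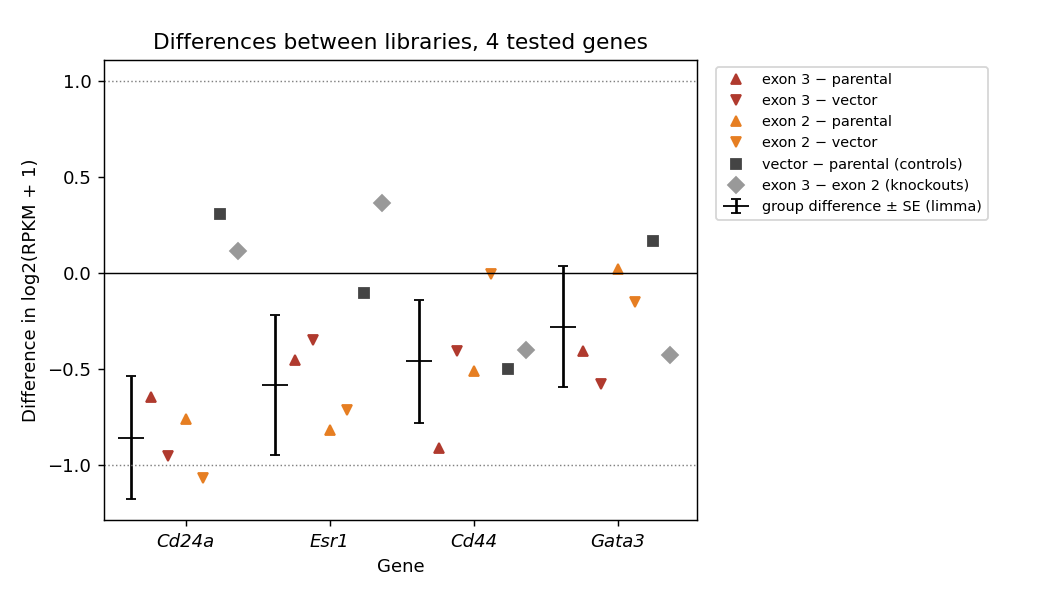
Differences in log2(RPKM + 1) for the 4 tested genes, with the group difference and its limma SE in black, the 4 pairs of a knockout and a control in red and orange, and the difference within the controls and within the knockouts in grey. All 4 Cd24a pairs lie between -1.07 and -0.65, further from 0 than its differences within groups (0.31 and 0.12), while for Cd44 and Gata3 the differences within groups reach -0.50 and -0.43.

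Differences between the groups varied with base composition. Across 10773 genes the log2 difference correlated with coding GC content at r = 0.459 and with coding length, in log2, at r = -0.278. The genes of this correlation share the same 4 libraries and are not replicates. Coding GC, read from the longest annotated coding sequence, was 55.1% in Cd24a, 56.4% in Esr1, 60.9% in Gata3 and 49.0% in Cd44. Its median was 53.1% over the genes of the correlation. For Cd24a that sequence is not the 231 bases behind its RPKM. The correction therefore joined the GC content of one sequence to the length of another for this gene. After correction for GC and length the difference was -1.20 for Cd24a and -0.49 for Gata3, and Cd24a was then at least 2-fold lower in all 4 pairs.

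To place the 10 genes, 112 further genes were read in 6 lists of cell identity. Stromal and mesenchymal genes were mostly expressed, genes of the luminal lists were mostly low, and basal genes were divided. Over all genes in the table, 48.5% had a mean RPKM under 1. The share of genes with a mean RPKM of at least 1 was 24.0% of 25 luminal and general epithelial structure genes, 33.3% of 18 hormone-sensing luminal genes, 35.7% of 14 luminal progenitor and milk genes, 53.8% of 26 basal and myoepithelial genes, 82.4% of 17 stromal and mesenchymal genes and 8.33% of 12 immune and endothelial genes. Counts of list genes lower or higher in both knockouts are to be read against the 31.2% and 21.9% of all tested genes. No gene of any list passed an adjusted p of 0.05 in limma, and 0, 2, 1, 2, 3 and 1 genes of these lists, in that order, had an unadjusted p under 0.05.

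**Figure D3:**
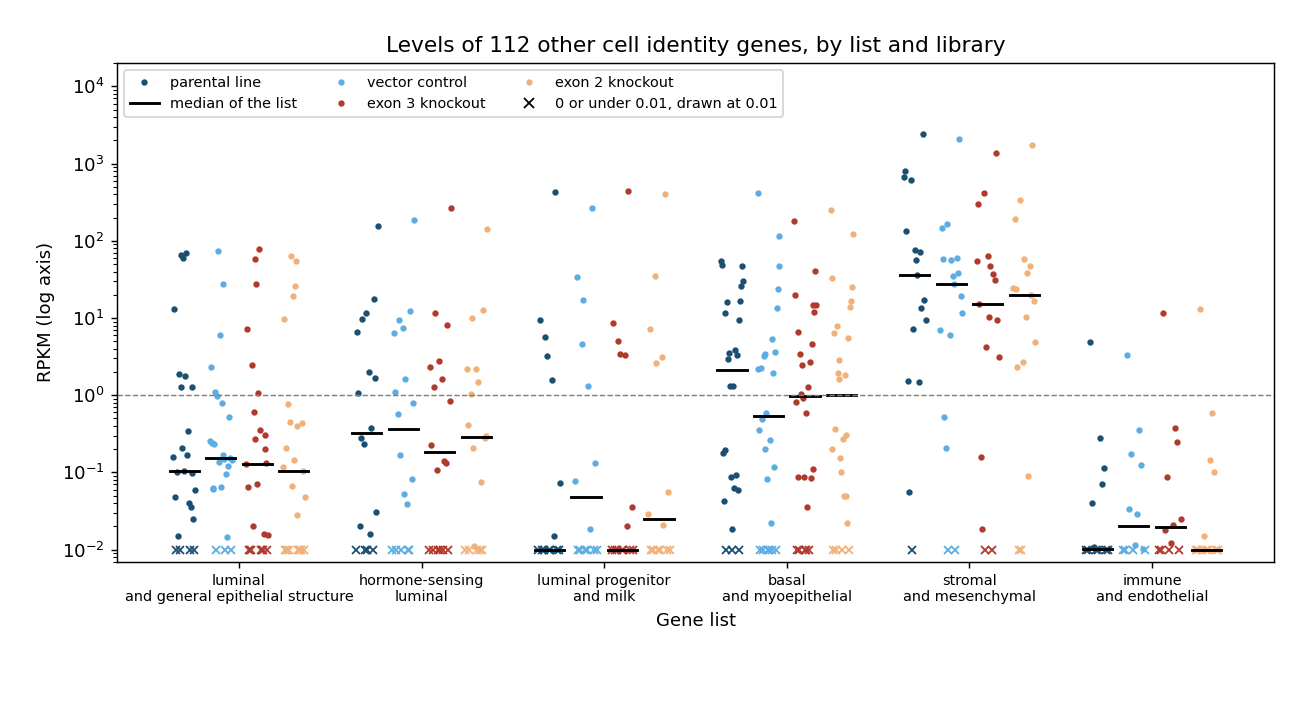
RPKM (log axis) of 112 other identity genes in 6 lists, 1 point per gene and library, with the list's median in each library as a bar and crosses for values of 0 or under 0.01. The median over genes of the mean level is 27.9 RPKM for the stromal list, 1.48 for the basal list and under 1 for the other 4.

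Of the epithelial structure genes, Krt8, a keratin of simple epithelia, and F11r, a tight junction protein, were the most abundant. Krt8 stood at 69.0 RPKM in parental cells, 27.5 with the vector control, 78.9 after exon 3 editing and 54.8 after exon 2 editing, with overlapping groups, and F11r at 64.7, 73.0, 58.7 and 62.8 in the same order (log2 difference -0.17, adjusted p = 0.766 by limma). Cdh1, the gene for E-cadherin and an adhesion protein of epithelia, had 45 reads in all libraries together. The basal keratin genes Krt5 and Krt14 had 1 and 15 reads. Other genes of the same lists were well expressed. Krt18, a further keratin of the structure list, stood at 60.2, 6.10, 27.3 and 19.1 RPKM in the same order. Cdh3, a cadherin of the basal list, stood at 48.8, 2.18, 19.7 and 32.9. In all, 6 of the 25 structure genes and 14 of the 26 basal genes averaged at least 1 RPKM. Cdh1, Krt5, Krt14, Krt18 and Cdh3 were named after their values were seen. Of the 6 structure genes tested, 1 lay lower in both knockouts and 0 higher, and the median log2 difference was 0.33. Without the parental line that median was 1.37 and without the vector control -0.15.

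Hormone-sensing genes beside Esr1 gave a median of -0.31 over the 6 tested, with 3 lower and 1 higher in both knockouts. The median was -0.15 without the parental line and -0.48 without the vector control. Greb1, a cofactor induced by estrogen, stood at 11.5, 7.48, 2.77 and 2.19 RPKM in the parental line, vector control, exon 3 knockout and exon 2 knockout (log2 difference -1.57, SE 0.360, adjusted p = 0.105 by limma). Greb1 was at least 2-fold lower in all 4 pairs without passing the test. Tbx3, a T-box factor of mammary development, was 17.6, 12.5, 8.21 and 12.8, Erbb2, a receptor tyrosine kinase, was 9.61, 9.52, 11.7 and 10.1, and Xbp1, a factor of the secretory pathway, was 155, 184, 264 and 141.

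Luminal progenitor and milk genes were split between a few expressed members and many at 0, 5 of the 14 having 0 reads in every library. Mfge8, a secreted milk fat globule protein, stood at 426, 265, 437 and 401 RPKM in the same library order. Cd14, a lipopolysaccharide co-receptor, was 9.42, 34.5, 8.74 and 7.15, and Lcn2, the iron-carrier binding lipocalin, was 1.59, 1.31, 3.32 and 3.17, with adjusted p = 0.250 and 0.262 by limma. Of the 5 tested, 1 lay lower and 1 higher in both knockouts, and the median log2 difference was 0.32.

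Of the 14 basal genes tested, 4 lay lower and 0 higher in both knockouts, against 31.2% and 21.9% of all tested genes. Their median log2 difference was -0.33. That median was -0.026 without the exon 3 knockout, -0.72 without the vector control and -0.22 over the 13 genes that the study had not picked on these samples, of which 3 were lower. The most abundant were the smooth muscle genes Acta2 (55.2, 420, 178 and 252 RPKM) and Tagln (29.9, 115, 14.8 and 122), which fibroblasts express as well, and their groups overlapped. Snai2, a zinc finger repressor of epithelial genes, was 25.9, 23.8, 11.8 and 16.9 RPKM (log2 difference -0.77, adjusted p = 0.230 by limma). The summed RPKM of the basal list was 278 and 643 in the controls and 305 and 493 in the knockouts.

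Stromal and mesenchymal genes had the highest levels and a median log2 difference of -0.54 over 14 tested, with 7 lower and 1 higher in both knockouts. The study picked Col3a1 and Zeb2, a repressor of epithelial genes, on these samples, so they are no independent evidence of a direction, and over the other 12 genes the median was -0.52, with 5 lower and 1 higher. Vim, the intermediate filament of mesenchymal cells, stood at 2418, 2060, 1362 and 1721 RPKM in the parental line, vector control, exon 3 knockout and exon 2 knockout (log2 difference -0.54, adjusted p = 0.355 by limma). Fn1, a matrix glycoprotein, was 606, 164, 414 and 340. Prrx1, a homeobox factor of mesenchyme, was 56.0, 35.1, 10.3 and 10.3 (log2 difference -2.004, SE 0.332, adjusted p = 0.0731), and Col3a1, a fibrillar collagen, was 133, 57.9, 15.2 and 23.9 (log2 difference -2.14, adjusted p = 0.0957). Snai1, another repressor of epithelial genes, was 35.6, 27.2, 47.4 and 38.1 (log2 difference 0.44, adjusted p = 0.454). The summed RPKM of the stromal list was 4926 and 2692 in the controls and 2349 and 2504 in the knockouts, so the sum of the vector control was close to those of the knockouts. Cd44 was likewise closest in the vector control and the exon 2 knockout, while Cd24a was highest in the vector control. The part of this list's level in the differences of Cd44, Cd24a and Esr1 was not tested.

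**Figure D4:**
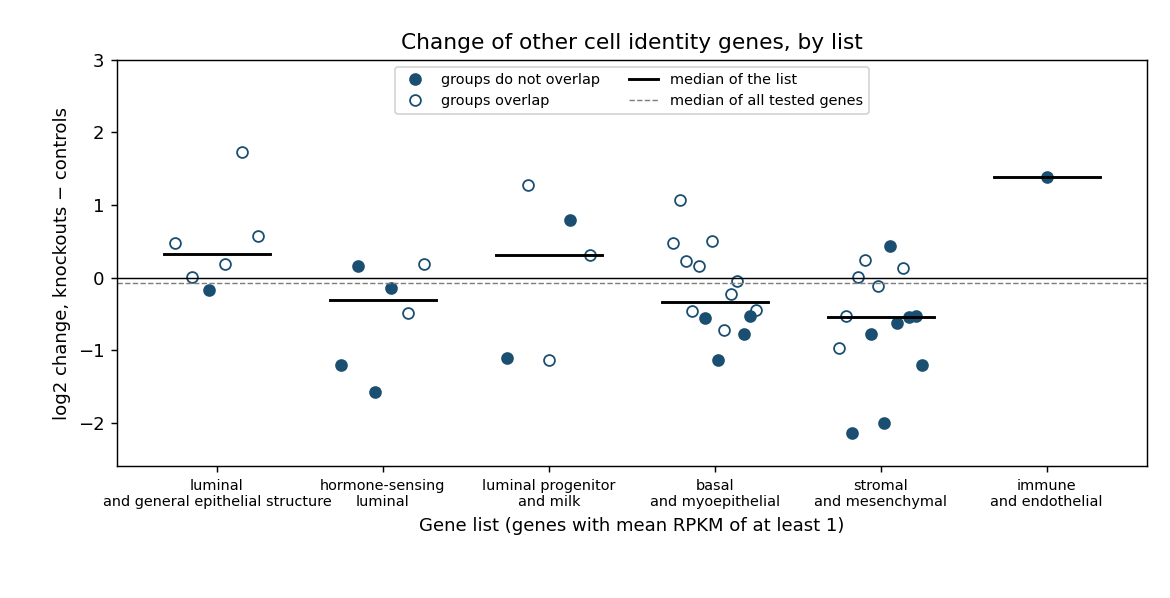
Log2 difference (knockouts minus controls, log2(RPKM + 1) scale) of the list genes with a mean RPKM of at least 1, with filled points where the groups do not overlap, bars at list medians and a dashed line at the median of all tested genes, -0.078. The stromal list has the lowest median, -0.54, and the immune point is Cd68.

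Markers of blood and vessel cells were almost absent. The pan-leukocyte gene Ptprc had 1 read in all libraries together, the T cell gene Cd3e had 0, and the summed RPKM of the 12 genes was 5.45 and 4.09 in the controls and 12.3 and 14.1 in the knockouts. Nearly all of it was Cd68, the 1 gene of the list tested, a lysosomal glycoprotein best known from macrophages, at 4.92, 3.36, 11.5 and 13.2 RPKM (log2 difference 1.39, SE 0.340, adjusted p = 0.105 by limma), while Lyz2, the macrophage lysozyme, was at most 0.597.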

How the data were processed

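RNA-seq of 4 cell lines was analysed from the RPKM table as deposited by the authors, with 1 column per library and 0 columns left unmatched. The submitters' processing notes name CASAVA 1.8, GSNAP and GRCm38. The labels name a stranded total RNA kit. The gene model, the counting rule and the use of strand are not given in the sources used here. Whole reads were recovered from the RPKM ratios for 100% of 15405 genes above 0 (tolerance 0.001 reads), and the lengths found equalled an annotated coding length in GENCODE M21 for 58.4% of tested genes, so the absolute scale of reads rests on annotated lengths.

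Groups came from sample titles. Genes with mean RPKM of at least 1 (10871) were tested on log2(RPKM + 1) with limma 3.58.1 (R 4.3.3, intensity trend, no covariates), with Benjamini-Hochberg adjustment over all of them and a threshold of 0.05. Adjusted p-values come from that fit unless an alternative is named. The fit was also run on simulated data with changes larger than those of Cd44, Gata3, Cd24a and Esr1. That run does not gauge power for these genes. Two-sided exact permutation tests went through every split of the 4 libraries into equal groups, with numpy 2.4.6. Zero counts were given a fixed limit of 3 reads, which is lower than the upper end of the exact Poisson interval at 0. Intervals are 95% exact Poisson, computed with scipy 1.17.1. Alternatives were a pseudocount of 0.1, 2 other scalings, a GC and length correction, other filters, other priors, voom on recovered reads, a 3-fold limit and leaving out each library. The genes examined and the lists were chosen with earlier results of these data known. Named from each list were the 2 genes with the highest mean RPKM and, among tested genes, up to 2 in each direction, ranked by the smallest of their 4 pairwise changes. Some genes so selected are not reported here and enter the counts and medians of their lists without being named.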

Additional observations from a re-analysis of the deposited data

Results flagged for a closer look

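The genes checked were 25 tested genes, namely S100a4, the 4 tested members and genes selected from the lists. Among them, 2 lay above both controls in one knockout and below both in the other. Xbp1 stood at 264 RPKM after exon 3 editing and 141 after exon 2 editing, against 155 and 184 in the controls, a difference between knockouts of 0.91 on the log2 scale. Tagln stood at 14.8 RPKM after exon 3 editing and 122 after exon 2 editing, against 29.9 and 115 in the controls, a difference of -2.95. Neither difference was tested, since each knockout has 1 library. Of all 10871 tested genes, 857 (7.88%) moved in opposite ways in the knockouts in this sense. None of the 4 tested mammary identity genes did, and the members below the filter were not checked.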

How the results depend on the processing

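No paired analysis was possible because the labels give no replicate numbers and nothing ties a control to a knockout. None of the 10 mammary identity genes passed the adjusted threshold under any of the 13 alternatives run. Calls among the genes of the other lists were not counted under these alternatives. The differences of Cd44, Gata3, Cd24a and Esr1 stayed negative in each, except that Esr1 was not tested with a mean RPKM of at least 5. Of all genes, 2 passed in the reported fit, against 1 with a pseudocount of 0.1, 0 with median ratio scaling, 1 with quantile normalization, 0 with the GC and length correction, 0 without a filter, 32 with a mean RPKM of at least 5, 285 with a robust prior and 0 with voom, and between 0 and 802 without 1 library (802 without the parental line, 449 without the vector control, 0 without the exon 3 knockout and 1 without the exon 2 knockout). Genes with an unadjusted p under 0.05 numbered 862 to 2371 over these alternatives. The count of the 10 mammary identity genes 2-fold apart in all pairs was 1 (Cd24a) with the GC and length correction. S100a4 was past the threshold with quantile normalization (-2.18), a mean RPKM of at least 5 (-1.88) and a robust prior (-1.88), and ran from -2.08 to -1.67 without 1 library, with an adjusted p of 7.07e-08 without the parental line, 1.68e-04 without the vector control, 0.397 without the exon 3 knockout and 0.196 without the exon 2 knockout, where the lone library is assumed to vary like the other group. The hormone-sensing median was -0.14 and the basal median -0.069 with quantile normalization. Without 1 library the median ran from -0.15 to 1.37 for the epithelial structure list, from -0.026 to 0.66 for the progenitor and milk list and from -0.73 to -0.41 for the stromal list. Leaving out the genes the study had picked was chosen after seeing the data. The cause of these shifts was not tested. Elf5, Ehf and Pgr had at most 1 read in all, which limits what could be detected. The median difference of all genes was -0.078 as reported and 0.0051, 0.041 and 0.048 under median ratio scaling, quantile normalization and the GC and length correction.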
